A study of Mus musculus with 79 samples.

Results

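The carnitine shuttle genes were examined in mouse quadriceps, the large muscle of the front of the thigh. The 6 members, Cpt1a, Cpt1b, Cpt2, Slc25a20, Crat and Slc22a5, were chosen by name, and each was represented by the probeset that carries its symbol. All 6 were on the array, out of 22335 gene symbols and 35556 probesets in all, and each had 1 probeset. The animals were males of the BXD family, a set of inbred strains that descend from matings between C57BL/6J and DBA/2J, and of those 2 parental strains. One group ate a chow diet (CD, Harlan 2018), and the other ate a high fat diet (HFD, Harlan 06414) that started at 8 weeks of age. All mice were 29 weeks old and had been fasted overnight, so every value is from fasted muscle, and no fed group was analysed here. Each array held RNA pooled from about 5 animals of 1 strain on 1 diet. There were 79 arrays, 42 of CD cohorts and 37 of HFD cohorts, and 37 of the 42 strains were present on both diets. The array titles name 2 batches, with 35 and 44 arrays.

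Long-chain fatty acids cannot cross the inner mitochondrial membrane as acyl-CoA and are carried across it as esters of carnitine. Carnitine enters the muscle fibre through the sodium-dependent transporter encoded by Slc22a5 (OCTN2). A carnitine palmitoyltransferase of the outer membrane moves the acyl group from CoA to carnitine and is inhibited by malonyl-CoA. Cpt1b encodes the isoform for which muscle is known, and Cpt1a the isoform best known from liver. Slc25a20 encodes the translocase that exchanges acylcarnitine for free carnitine across the inner membrane, Cpt2 the matrix-side enzyme that returns the acyl group to CoA for beta oxidation, and Crat the acetyltransferase that turns acetyl-CoA into acetylcarnitine. Several of these genes are textbook targets of the fatty acid receptors of the PPAR family.

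The values are scores, scaled so that each array averages 8.0 with an SD of 2.0. They were treated as logs, which was not tested, and the log base was not stated. A fold computed as 2 to the power of a difference is therefore called nominal. Scores of different probesets are not compared as levels, since probes differ in response. In strain BXD63 the diet profile ran against the others. Across all probesets its HFD minus CD differences correlated at r = -0.28 with the mean of the other 36 paired strains, while the next lowest strain, BXD103, had r = 0.14. Whether its CD and HFD arrays are labelled the right way round was not tested, and an exchange would turn the sign of its differences. The 8 skeletal muscle markers had a mean score between 13.01 and 13.30 on every array.

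Promoter sequences of 4 of the 6 members, from RefSeq (GRCm38.p6), were used here. The 250 bases before the transcript start are shown for Cpt2 and Slc25a20, because these moved together and had the highest diet differences of the members, and for Cpt1a, whose difference was the least stable. Capitals mark GGGCGG (the GC box) and AGGTCA (the nuclear receptor half-site), each read on both strands as GGGCGG or CCGCCC and as AGGTCA or TGACCT.
Cpt2, chr4:107923590-107923839, minus strand: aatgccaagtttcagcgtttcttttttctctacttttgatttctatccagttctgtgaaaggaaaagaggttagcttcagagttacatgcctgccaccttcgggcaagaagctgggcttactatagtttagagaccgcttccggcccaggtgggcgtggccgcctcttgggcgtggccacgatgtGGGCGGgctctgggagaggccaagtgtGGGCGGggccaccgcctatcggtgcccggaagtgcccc
Slc25a20, chr9:108661886-108662135, plus strand: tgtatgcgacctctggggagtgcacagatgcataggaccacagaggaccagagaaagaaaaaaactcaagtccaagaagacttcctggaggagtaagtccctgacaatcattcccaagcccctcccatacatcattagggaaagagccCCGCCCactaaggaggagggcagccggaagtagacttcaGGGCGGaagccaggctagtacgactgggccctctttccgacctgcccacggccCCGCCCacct
Cpt1a, chr19:3323051-3323300, plus strand: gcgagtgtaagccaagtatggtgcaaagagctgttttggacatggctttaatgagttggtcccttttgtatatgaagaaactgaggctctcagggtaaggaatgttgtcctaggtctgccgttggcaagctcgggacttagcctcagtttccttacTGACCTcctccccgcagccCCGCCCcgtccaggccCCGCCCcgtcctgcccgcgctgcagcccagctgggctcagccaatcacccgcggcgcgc
The GC box was found 2 or 3 times in each of the 4 members, Slc22a5 included, against 32.7% of all 32851 promoter windows of the same length that held at least 1. The half-site was found in 1 member, Cpt1a, 94 to 89 bases before its start, and in 14.0% of all windows. The pair of half-sites AGGTCANAGGTCA, which contains the half-site and is the arrangement bound by PPAR with RXR, was in 0 of the 4 members and in 0.0335% of all windows. The longer ERR motif TNAAGGTCA, which also contains the half-site, was in 0 of the 4 and in 1.14% of all windows. These letters are a description of the windows and carry no statement about binding.

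All 6 members were higher on HFD. Over all probesets, 18.9% were called higher and 38.1% were called in either direction (limma with diet and batch, Benjamini-Hochberg adjusted over all 35556 probesets). The median difference of the members was 0.19 units, and that of all probesets was 0.00 (-0.000663). The members' differences ran from 0.11 units in Cpt1b to 0.36 in Cpt2. The arrays measured bulk muscle, in which more cells of a type and more RNA per cell cannot be told apart, and the p-values measure the spread between strain pools.

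**Figure D1:**
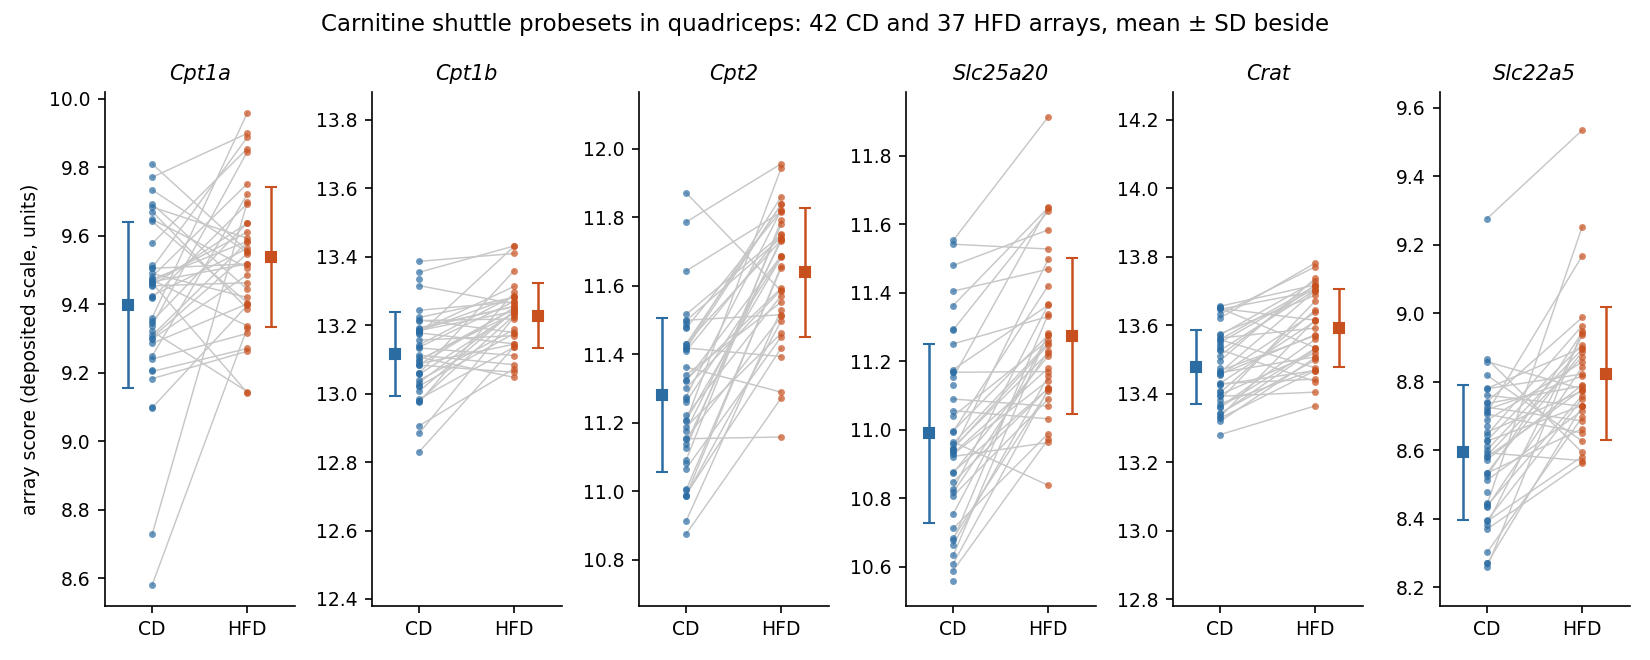
Array scores of the 6 carnitine shuttle probesets, with 1 point per array (42 CD, 37 HFD), grey lines joining the arrays of 1 strain and squares with bars giving the mean ± SD of each diet; all panels span 1.5 units. The means moved up on HFD in all 6 panels while the diets overlapped in each, and the lines of Cpt2 rose in 34 of 37 strains and those of Cpt1a in 26.

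Slc22a5 encodes the transporter that brings carnitine into the fibre. Its transcript score on CD was lowest at 8.26 in BXD62, had a median of 8.60 and was highest at 9.28 in BXD75. On HFD it ran from 8.56 in BXD43 through a median of 8.79 to 9.53 in BXD75. BXD75 was the highest strain on both diets, and the diets overlapped. Of the HFD arrays 33 of 37 lay above the CD median, and 17 of 42 CD arrays lay below the lowest HFD array. The mean was 8.59 ± 0.20 (SD, n = 42) on CD and 8.82 ± 0.19 (SD, n = 37) on HFD. The difference was 0.23 units (SE 0.044, limma adjusted p = 1.49e-05), a nominal 1.17-fold, and the score was higher on HFD in 30 of 37 strains. The widest rise was 0.81 units in BXD44 and the lowest difference was -0.27 in BXD103.

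Transcripts of both isoforms of the outer-membrane enzyme were on the array. Cpt1b, the muscle isoform, ran on CD from 12.83 in BXD70 through a median of 13.11 to 13.39 in BXD97. On HFD it ran from 13.05 in BXD56 through 13.24 to 13.43 in BXD103. The HFD values were packed more closely, and 12 of 42 CD arrays lay below the lowest HFD array. The difference was 0.11 units (SE 0.025, limma adjusted p = 2.14e-04), a nominal 1.08-fold, with 30 of 37 strains higher on HFD.

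Cpt1a ran on CD from 8.58 in C57BL/6J and 8.73 in BXD68 through a median of 9.44 to 9.81 in BXD56. On HFD it ran from 9.14 in BXD89 through 9.55 to 9.96 in BXD79. The lowest CD strains, C57BL/6J and BXD68, had the widest rises, of 0.75 and 0.97 units. A rise is counted from that same CD array, so a low CD value widens it by construction. The diets otherwise overlapped, with 25 of 37 HFD arrays above the CD median. The difference was 0.14 units (SE 0.050, limma adjusted p = 0.0203), and 26 of 37 strains were higher on HFD. This call was the least stable of the 6. The difference was 0.19 (adjusted p = 0.0683) in batch 1 alone and 0.10 (adjusted p = 0.302) in batch 2 alone.

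Marker genes of 2 other cell types were read beside it, against the 18.9% of all probesets called higher and 38.1% called in either direction. Of 12 adipocyte markers, 7 were called higher and 2 lower on HFD, and their mean score ran from 10.40 to 11.58 on CD and from 10.51 to 11.95 on HFD. Of 6 macrophage markers, 3 were called higher and 0 lower (4 higher with strain as a block), with a mean score from 8.23 to 8.92 on CD and from 8.33 to 9.30 on HFD. With the adipocyte marker mean as a covariate (10 markers, without Fabp4 and Slc2a4), the Cpt1a difference was 0.07 (adjusted p = 0.369). With the macrophage marker mean it was 0.08 (adjusted p = 0.238). The other 5 members were called higher in each of these fits. Whether muscle fibres add to the signal of the adipocyte markers kept, such as Car3 and Pnpla2, was not tested. The part of fat or immune cells in the Cpt1a difference was not tested either.

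Slc25a20 encodes the translocase of the inner membrane. Its transcript score on CD ran from 10.56 in BXD101 through a median of 10.95 to 11.55 in BXD97, and on HFD from 10.84 in BXD49 through 11.25 to 11.91 in BXD97. BXD97 was the highest strain on both diets, and 36 of 37 HFD arrays lay above the CD median. The difference was 0.28 units (SE 0.055, limma adjusted p = 2.04e-05), a nominal 1.22-fold, with 33 of 37 strains higher on HFD. The widest rises were 0.66 units in C57BL/6J and 0.65 in BXD99.

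Cpt2, which reforms acyl-CoA in the matrix, had the largest difference of the 6 as measured on its probeset. On CD it ran from 10.88 in BXD43 through a median of 11.27 to 11.87 in BXD98. On HFD it ran from 11.16 in BXD49 through 11.68 to 11.96 in BXD97. On CD, 14 of 42 arrays lay below the lowest HFD array, and 35 of 37 HFD arrays lay above the CD median. The difference was 0.36 units (SE 0.047, limma adjusted p = 1.79e-09), a nominal 1.28-fold, and 0.939% of all probesets had a larger difference in this direction. It was higher on HFD in 34 of 37 strains. The other 3 strains were BXD98, at -0.29 units and the highest on CD, BXD56 and BXD73. A high CD value lowers the difference of its strain by construction.

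Crat, the acetyltransferase, ran on CD from 13.28 in BXD43 through a median of 13.47 to 13.66 in BXD65, and on HFD from 13.37 in BXD43 through 13.59 to 13.78 in BXD66. BXD43 was the lowest strain on both diets, and 13 of 37 HFD arrays lay above the highest CD array. The difference was 0.11 units (SE 0.026, limma adjusted p = 2.07e-04), a nominal 1.08-fold. It was higher on HFD in 33 of 37 strains. In batch 1 alone the difference was 0.12, with an adjusted p of 0.0517.

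The diet difference was then followed strain by strain. All 6 members were higher on HFD in 16 of 37 strains, and 5 of the 6 were higher in another 13. At the other end, 1 member was higher in BXD56, 2 in BXD98, and 3 in BXD49 and in BXD63. The median of the 6 differences was above 0 in 33 of 37 strains. It ran from -0.066 units in BXD56 to 0.50 in C57BL/6J, and had an SD of 0.13 between strains. Each strain difference rests on 1 array per diet, so its own error was not measured.

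**Figure D2:**
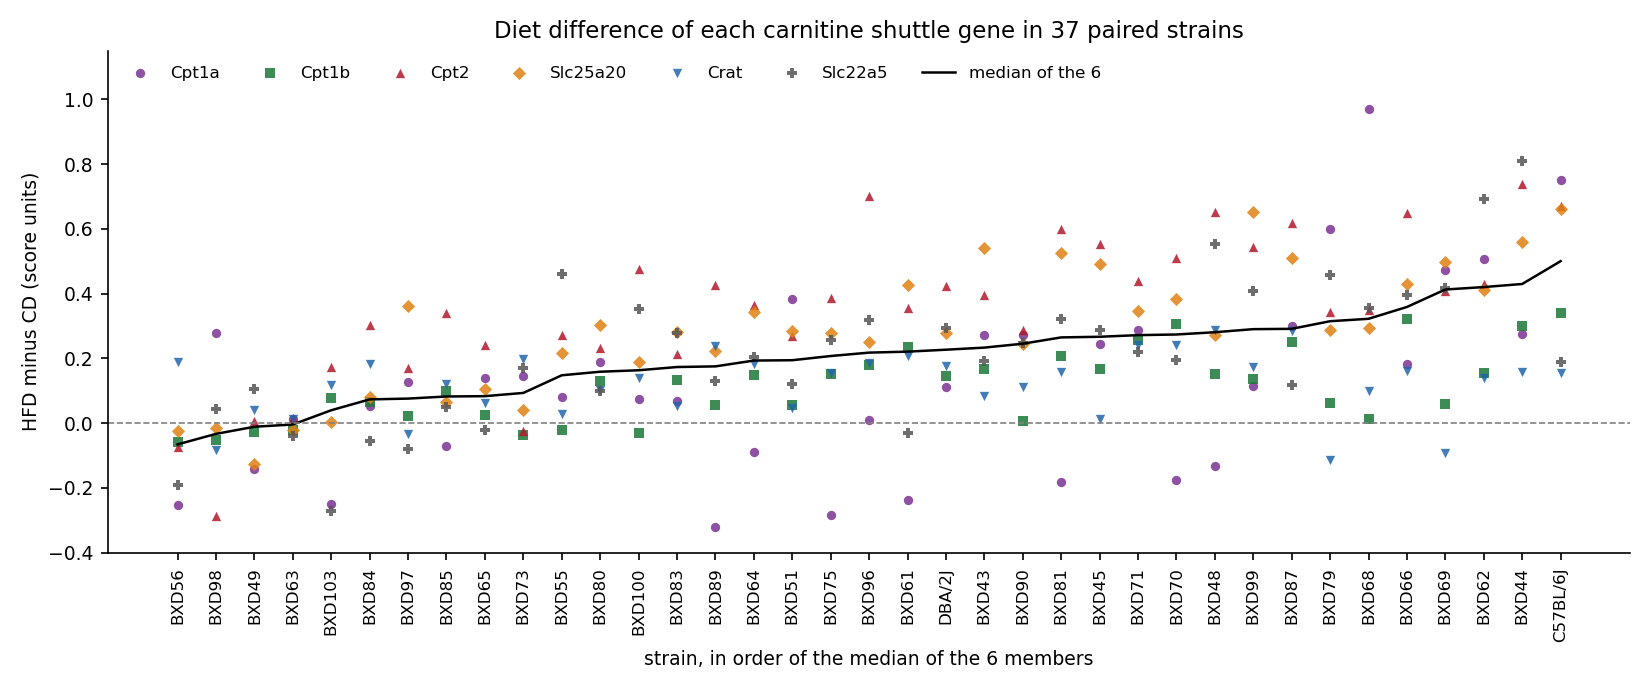
HFD minus CD score of each member (symbols) in the 37 paired strains, ordered by the median of the 6 members (black line); the dashed line marks no difference. The median was above 0 in 33 strains, lowest in BXD56 and highest in C57BL/6J, and the widest single difference was that of Cpt1a in BXD68, at 0.97 units.

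In C57BL/6J the differences of Cpt1a, Cpt2 and Slc25a20 were 0.75, 0.67 and 0.66 units, and in BXD44 those of Slc22a5 and Cpt2 were 0.81 and 0.74. BXD56 was lower on HFD in 5 members, with Cpt1a at -0.25 and Slc22a5 at -0.19, and higher in Crat, at 0.19. In BXD63, the strain whose whole profile ran against the rest, the 6 differences lay between -0.040 and 0.016. Without BXD63 all 6 members were still called higher, with a median difference of 0.19. The mean difference was above 0 for every member in the 12 strains run wholly in batch 1, in the 17 run wholly in batch 2 and in the 8 split between batches. For Cpt2 these means were 0.41 ± 0.22, 0.32 ± 0.26 and 0.35 ± 0.18 units (SD over strains), and for Cpt1a they were 0.21 ± 0.24, 0.06 ± 0.33 and 0.16 ± 0.26.

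The neighbours of the shuttle in the pathway were read in the same fit, which called 18.9% of all probesets higher and 38.1% in either direction (20.7% and 40.6% with strain as a block). Of 15 genes of mitochondrial beta oxidation, which the shuttle feeds, 15 were called higher and 0 lower, with a median difference of 0.22 units. The lowest of them was Etfdh, at 0.12 (SE 0.049, limma adjusted p = 0.0439), and the highest was Ech1, an auxiliary isomerase, at 0.55 (SE 0.057, limma adjusted p = 6.75e-13). Of 10 genes that supply fatty acids to the shuttle, 6 were called higher and 0 lower (7 higher with strain as a block), among them the fatty acid binding protein Fabp3 at 0.42 and the uptake protein Cd36 at 0.27.

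Of 10 genes that set malonyl-CoA, the inhibitor of the outer-membrane step, 2 were called higher and 2 lower, close to the shares of all probesets (18.9% higher, 38.1% either way), with a median of 0.03 units. The higher ones were Prkab1, at 0.14 (adjusted p = 2.44e-06), and Prkaa1, at 0.13, both subunits of AMP-activated kinase. The lower ones were Acaca and Prkaa2, the latter a catalytic subunit of the same kinase, at -0.08. Acaca, which makes malonyl-CoA in lipogenic cells, differed by -0.25 (adjusted p = 0.00337), while Acacb, the isoform of muscle mitochondria, differed by -0.01 (SE 0.045, adjusted p = 0.932), and Mlycd, which removes malonyl-CoA, by 0.03 (adjusted p = 0.602). Of 9 other carnitine genes on the array, 1 was called higher and 1 lower, with a median of 0.06 units. The higher one was Slc22a21, a carnitine transporter related to Slc22a5, at 0.12, and the lower one was Slc16a9, a carnitine exporter, at -0.21. With strain as a block, a fit that called 20.7% of all probesets higher and 40.6% in either direction, 3 were called higher and 1 lower, as Slc22a4 (block adjusted p = 0.0122) and Aldh9a1 (block adjusted p = 0.0156) also passed. Crot, the peroxisomal octanoyltransferase, differed by -0.06 (adjusted p = 0.225).

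Of 11 genes for the PPAR, PGC-1 and ERR regulators, 3 were called higher and 0 lower (4 higher with strain as a block), with a median of 0.05 units. The 3 were Pparg at 0.26, Esrrb at 0.19 and Ppargc1b at 0.14. Ppara differed by 0.03 (adjusted p = 0.722) and Ppard by 0.05 (adjusted p = 0.0971). Of 10 other PPAR responsive genes, 4 were called higher and 2 lower. Angptl4, an inhibitor of lipoprotein lipase, differed by 0.54 and Ucp3, a mitochondrial carrier, by -0.24 (adjusted p = 0.0262), while Pdk4, a kinase that restrains glucose oxidation, differed by -0.04 (adjusted p = 0.566). The shares of all probesets called higher and called in either direction were the 18.9% and 38.1% given above.

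**Figure D3:**
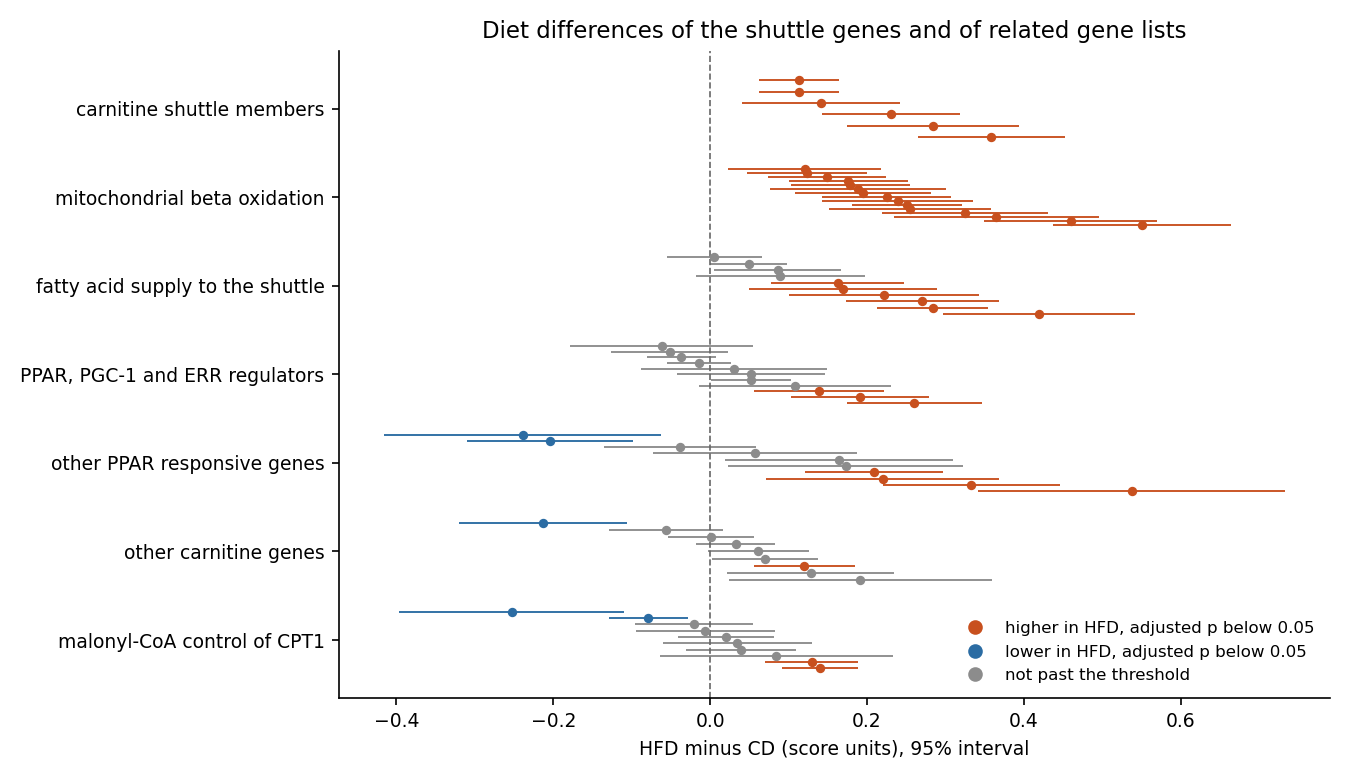
HFD minus CD difference of each gene in 7 lists (points, 1 per gene, sorted within a list) with its 95% interval from limma over 79 arrays; orange and blue points passed the adjusted threshold as higher and lower on HFD, grey points did not. All 6 shuttle genes and all 15 beta oxidation genes were orange, whereas the malonyl-CoA list held 2 orange and 2 blue points of 10.

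The spread between strains was described next. From the lowest to the highest strain, Cpt1a spanned a nominal 2.34-fold on CD, with C57BL/6J and BXD56 at its ends, and 1.76-fold on HFD. Its low end on CD was C57BL/6J at 8.58, followed by BXD68 at 8.73, against a median of 9.44. Slc22a5 spanned 2.03-fold on CD and 1.96-fold on HFD with BXD75 at the upper end, and 1.53-fold and 1.61-fold without that strain. Cpt2 spanned 1.99-fold and 1.74-fold. Slc25a20 spanned 1.99-fold on CD and 2.11-fold on HFD, the last with BXD49 and BXD97 at its ends. Cpt1b and Crat had narrow ranges. Cpt1b spanned 1.47-fold and 1.30-fold, and Crat 1.30-fold and 1.34-fold. Of all probesets, 97.7% had a wider range than Crat on CD and 98.0% a wider range than Cpt1b on HFD. Cpt1b and Crat lay at percentiles 98.7 and 99.2 of mean score, and ranges were not compared among probesets of like score. The median over the 6 members was 1.99-fold on CD and 1.75-fold on HFD, beside medians over all probesets of 1.64-fold and 1.70-fold.

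Whether strains differed by more than the arrays of 1 strain differ after diet and batch was tested with a limma F test over the 37 paired strains, which called 13.6% of all probesets. It called 3 of the 6 members. These were Slc25a20 (F = 4.92, adjusted p = 7.9e-05), Crat (F = 3.04, adjusted p = 0.00745) and Cpt2 (F = 2.30, adjusted p = 0.0475). Cpt1b (F = 2.24, adjusted p = 0.0548), Slc22a5 (F = 2.02, adjusted p = 0.0919) and Cpt1a (F = 1.48, adjusted p = 0.291) did not pass. Cpt2 and Cpt1b lay on either side of the threshold by little. Without BXD75 the F of Slc22a5 was 0.94 (adjusted p = 0.704) and the adjusted p of Cpt2 was 0.0644. Without the parental strains that of Cpt2 was 0.0525. That of Cpt1b was 0.0489 without BXD63 and 0.0496 without the parental strains.

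The order of strains was compared between diets over the same 37 strains, after the batch mean was removed within each diet. Of the members 3 passed, and of all probesets 10.6% (permutation test with 100000 draws, Benjamini-Hochberg adjusted over all probesets), beside a median r of 0.14 over all probesets. Over all 37 strains Slc25a20 kept its order most closely of the members, with r = 0.68 (permutation p = 1e-05, the smallest the draws can give, adjusted p = 4.13e-04). Its rho was 0.60 (permutation p = 1.6e-04, adjusted p = 0.00414). Leaving out BXD97 and BXD98, which lay farthest from the median on CD, gave r = 0.60 (adjusted p = 0.00479). Within batch 1 (12 strains) r was 0.50, within batch 2 (17 strains) 0.76, and across batches (8 strains) 0.59.

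Crat had r = 0.59 (permutation p = 1.5e-04, adjusted p = 0.00343) and rho = 0.57 (permutation p = 3.3e-04, adjusted p = 0.00702), and r = 0.62 without its 2 farthest strains, BXD65 and BXD79. Its r was 0.81 within batch 1, 0.37 within batch 2 and 0.61 across batches. Cpt1b passed with r = 0.47 (permutation p = 0.00344, adjusted p = 0.0369), but its rho of 0.43 (permutation p = 0.00867, adjusted p = 0.0765) did not pass. Without BXD70 and BXD97 its r was 0.38 (permutation p = 0.026, adjusted p = 0.146) and thus did not pass after adjustment. Within batches it was 0.33 and 0.58, and across batches 0.18.

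Cpt2 had r = 0.40 (permutation p = 0.0147, adjusted p = 0.101) and rho = 0.43 (permutation p = 0.00767, adjusted p = 0.0704), and Cpt1a had r = 0.20 (permutation p = 0.24, adjusted p = 0.535) and rho = 0.27 (permutation p = 0.11, adjusted p = 0.368). Neither passed. Their r without the 2 farthest strains was 0.40 and 0.27. Within batches 1 and 2 and across batches, r was 0.42, 0.41 and 0.32 for Cpt2 and 0.50, 0.09 and -0.0023 for Cpt1a. For Slc22a5 no r over all strains is given, because BXD75 formed a cluster of its own, with a mean of both diets of 9.41 against 8.47 to 8.94 in the other 36 strains. Within those 36 strains r was -0.03 (permutation p = 0.87, adjusted p = 0.951) and rho was -0.0082 (permutation p = 0.963, adjusted p = 0.988).

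**Figure D4:**
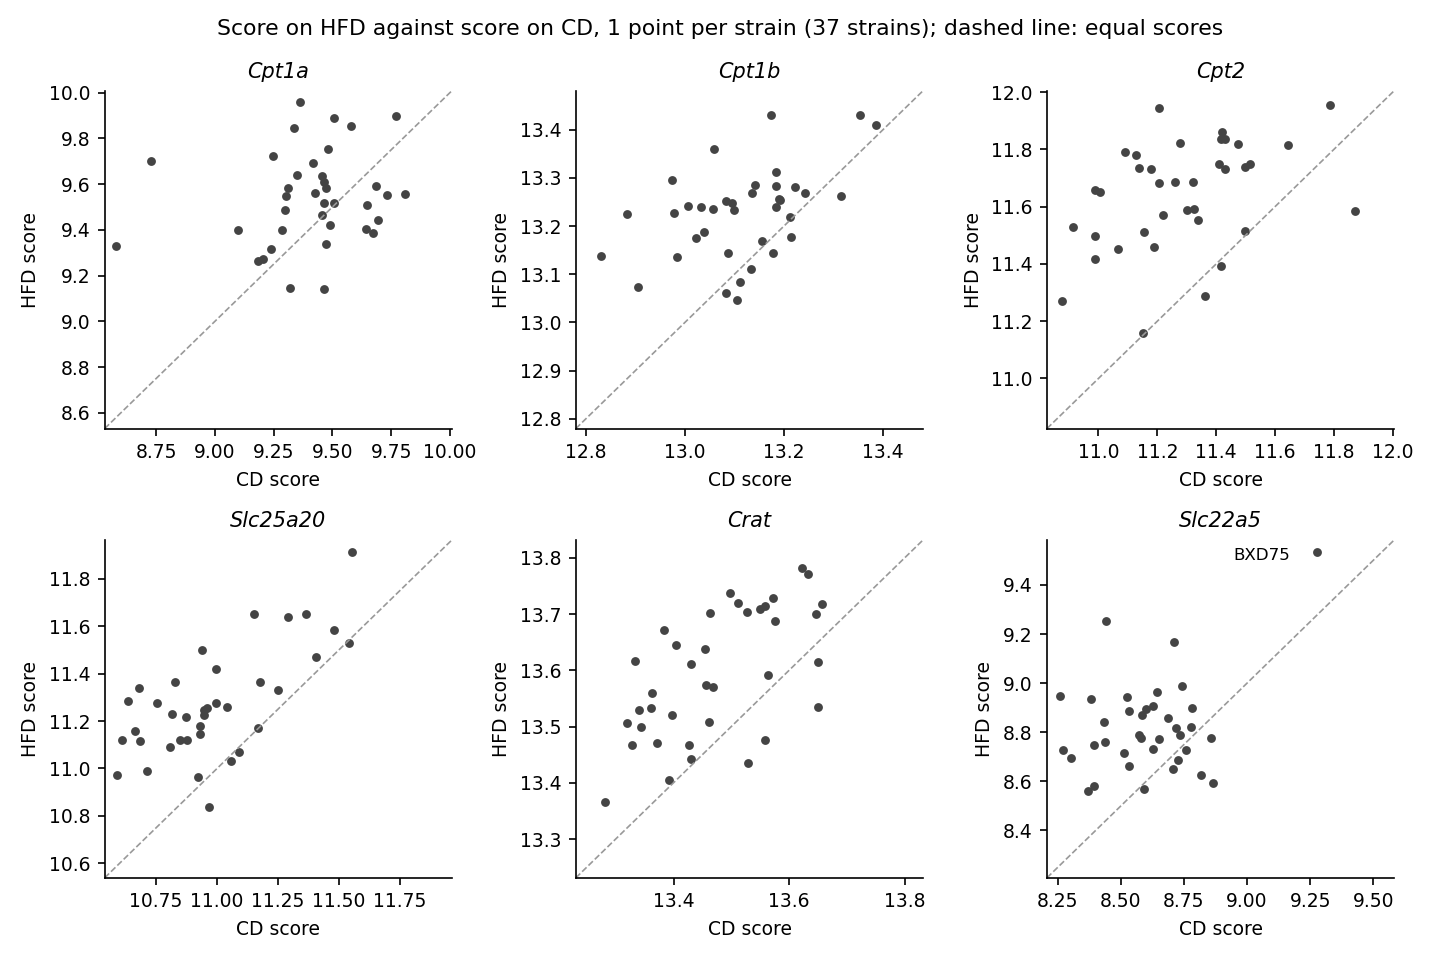
Score on HFD against score on CD for each member, 1 point per paired strain (37), with a dashed line where both are equal. Most points lie above the line, the points of Slc25a20 and Crat run along it (r = 0.68 and 0.59), and in Slc22a5 strain BXD75 stands apart from the other 36 strains.

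Members were also compared with each other between strains of the same diet. Of 15 pairs, 3 were called in both directions of the fit on CD and 3 on HFD (limma with batch, Benjamini-Hochberg over all other probesets), and they were the pairs among Cpt1b, Cpt2 and Slc25a20 on both diets. On the level of a member, the share of all probesets called on CD was 1.27% for Cpt1a, 1.08% for Cpt1b, 1.37% for Cpt2, 0.74% for Slc25a20, 0.0394% for Crat and 1.64% for Slc22a5. On HFD it was 17.1% for Cpt1a, 0.307% for Cpt1b, 0.458% for Cpt2, 1.49% for Slc25a20, 0.0422% for Crat and 0% for Slc22a5.

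Cpt1b and Cpt2 correlated at r = 0.89 (rho = 0.90, permutation p = 1e-05 for each) on CD and at r = 0.81 (rho = 0.78, permutation p = 1e-05 for each) on HFD. Cpt1b and Slc25a20 correlated at 0.79 (rho = 0.77, permutation p = 1e-05 for each) on CD and 0.60 (permutation p = 1.1e-04, rho = 0.56, permutation p = 3.8e-04) on HFD. Cpt2 and Slc25a20 correlated at 0.80 (rho = 0.78, permutation p = 1e-05 for each) on CD and 0.63 (permutation p = 5e-05, rho = 0.58, permutation p = 2.4e-04) on HFD. Within batches these r lay between 0.63 and 0.89 on CD. On HFD the pairs with Slc25a20 were weaker in batch 1 (17 arrays), at 0.34 with Cpt1b and 0.23 with Cpt2, than in batch 2 (20 arrays), at 0.68 and 0.78, and the difference between batches was not tested. Without the 2 strains farthest from the median, the 3 pairs had r of 0.88, 0.74 and 0.73 on CD and of 0.80, 0.66 and 0.65 on HFD.

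**Figure D5:**
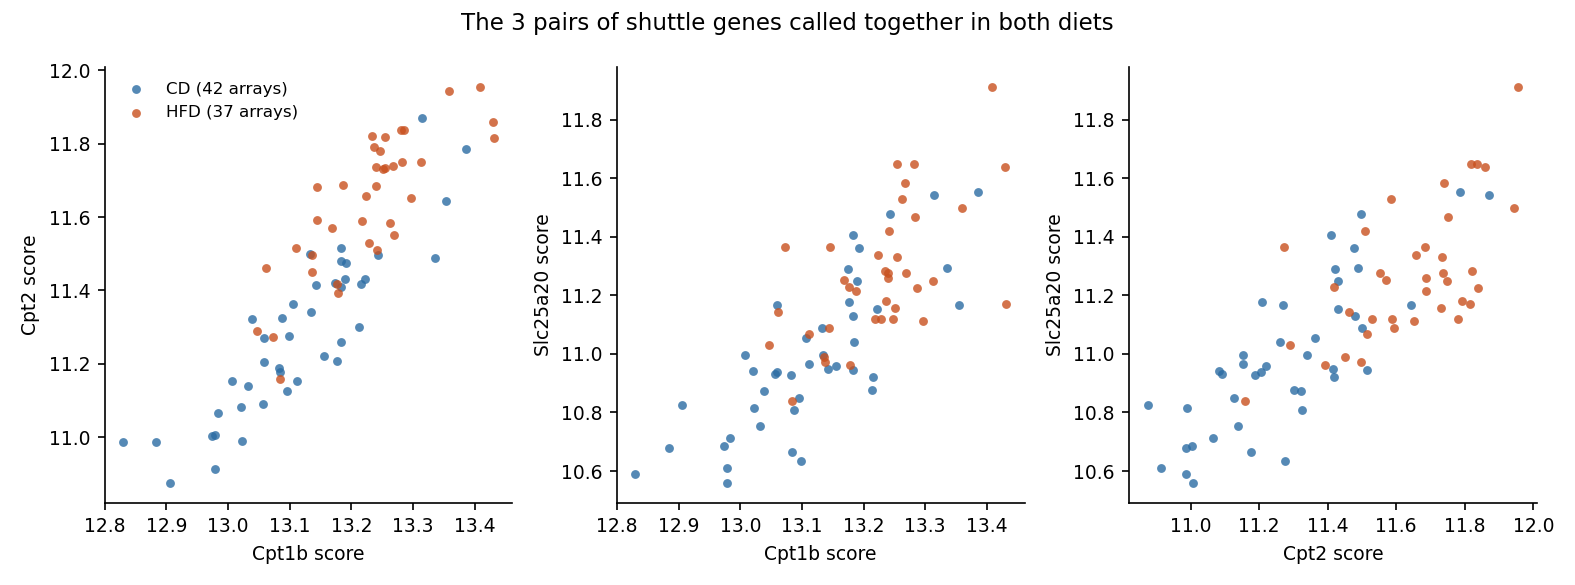
Scores of Cpt1b, Cpt2 and Slc25a20 against each other, 1 point per array, CD in blue (42) and HFD in orange (37). Within each diet the points rise together, with r from 0.79 to 0.89 on CD and from 0.60 to 0.81 on HFD.

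The slow fibre markers varied widely between arrays. The mean score of the 10 markers ran from 8.86 to 11.03 on CD and from 8.55 to 10.95 on HFD. With that mean as a covariate, 2 of the 3 pairs were called on CD and 1 on HFD. The slopes moved little. That of Slc25a20 on Cpt1b, which was called on neither diet, was 1.65 units per unit on CD against 1.68 without the covariate, and 1.55 against 1.45 on HFD. That of Slc25a20 on Cpt2 was 0.85 against 0.93 on CD, where it was called, and 0.78 against 0.76 on HFD, where it was not. The larger of the 2 limma adjusted p of Cpt1b with Cpt2 on CD rose from 5.37e-09 to 0.00177. In the diet fit, this covariate lowered the SE from 0.0255 to 0.0195 in Cpt1b and from 0.0469 to 0.0379 in Cpt2. The part of fibre type in these pairs was not tested. Without BXD63, 2 pairs were called on HFD, since Cpt1b with Slc25a20 had an adjusted p of 0.057. With the adipocyte covariate the same pair had an adjusted p of 0.0532. Crat was called with no other member. Its highest r over a whole diet was 0.35, with Cpt2 on CD (permutation p = 0.0228, rho = 0.35, permutation p = 0.0239), and the limma adjusted p was 0.346 in the fit on Cpt2. Within batch 1 on CD (18 arrays) its r was 0.61 with Cpt1b, 0.63 with Cpt2 and 0.67 with Slc25a20, and within batch 2 (24 arrays) it was 0.10, 0.16 and 0.18. On HFD these were 0.56, 0.47 and 0.47 in batch 1 and 0.10, 0.12 and -0.24 in batch 2. The difference between batches was not tested. Cpt1a and Slc22a5 had r = 0.49 on CD (permutation p = 0.00167, rho = 0.54, permutation p = 2.3e-04), with limma adjusted p of 0.0608 and 0.0528. On HFD their r was 0.17 (permutation p = 0.322, rho = 0.17, permutation p = 0.329).

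The genes most like each member were sought among 12563 other genes, by r over all 79 arrays after diet and batch means were removed. For Cpt1b these were Cpt2 (0.86), Fabp3 (0.85) and Etfdh (0.83), and for Cpt2 they were Hsdl2 (0.86), Cpt1b (0.86) and Fabp3 (0.85). For Slc25a20 they were Hadha (0.81), Etfdh (0.79) and Decr1 (0.77). Etfdh passes electrons of beta oxidation to the respiratory chain, and Hadha and Decr1 are enzymes of beta oxidation. For Cpt1a they were Angptl4 (0.75), Adh1 (0.68) and Tbp (0.66). The values of Crat and Slc22a5 were lower. Crat was most like Gm13375 (0.64), Hmcn2 (0.55) and Dpp7 (0.53), and Slc22a5 was most like Sec24c (0.58), Nt5dc2 (0.54) and Wwc2 (0.53). These values are descriptions over arrays that share strains and batches.

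C57BL/6J minus DBA/2J was called in 0 of 6 members and in 1.26% of all probesets (limma with 1 coefficient per strain), and 2 members had an unadjusted p below 0.05. Each parent had 1 array per diet, so the spread was borrowed from all paired strains. Cpt1a was at 8.58 on CD and 9.33 on HFD in C57BL/6J, and at 9.47 and 9.58 in DBA/2J. The difference of its diet means was -0.57 units (SE 0.20, limma adjusted p = 0.239). Crat differed by -0.19 (SE 0.080, limma adjusted p = 0.414), and the other 4 differences lay between -0.30 and -0.08. All 6 estimates were below 0, but they rest on the same 4 arrays. Slc25a20 was lower in C57BL/6J than in DBA/2J on CD (10.678 against 10.948) and higher on HFD (11.338 against 11.225).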

How the data were processed

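Quadriceps RNA of 79 strain and diet pools was run on Affymetrix Mouse Gene 1.0 ST arrays, and the submitters' processing notes name Affymetrix Expression Console. The values deposited by the authors are a score per probeset, with a mean of 8.0 and an SD of 2.0 on each array and medians from 7.783 to 7.922. The summarization, log base and genome build are not given in the sources used here. The linear models foreseen for log2 data were applied to these scores.

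Diet, strain and parental differences were fitted with limma 3.58.1 (lmFit and eBayes, R 4.3.3) on all 35556 probesets with batch as a term, called at a Benjamini-Hochberg adjusted p below 0.05. Cross-diet r came with two-sided permutation tests of 100000 draws. Other software was Python 3.11.15 with numba 0.67.0, scipy 1.17.1, numpy 2.4.6, scikit-learn 1.9.0, pandas 2.3.3 and, for plots, matplotlib 3.10.9. A member was treated as having separate clusters where a mixture of 2 normals had a BIC lower by 10 or more and Ashman's D above 2. The scripts were tested on simulated data. No pair of arrays held identical values. Precision is limited by the number of arrays. The column BXD92 on chow was matched to the title BXD92a.

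Strain names in the labels pair the arrays of both diets. Deviations from diet and batch means correlated between the arrays of a strain at -0.13 to 0.39 (median 0.21), above 0.1 in 32 of 37 strains.

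The members and lists were chosen with earlier results of these data known. A listed gene with several probesets was read from the one with the highest mean. Named genes were the 6 members, the genes of the lists and the 3 genes most like each member. The lists were other carnitine genes (11, of which 9 were on the array), malonyl-CoA control (10), fatty acid supply (10), beta oxidation (15), PPAR, PGC-1 and ERR regulators (11), other PPAR responsive genes (10), and markers of adipocytes (12), slow fibres (10), fast fibres (10), skeletal muscle (8), red blood cells (6, of which 5 were on the array), macrophages (6) and liver (5, of which 4 were on the array). Alternatives covered batch, strain as a block, the strains included, the tests, normalization, dim probesets and cell type covariates. The macrophage covariate and the fits and ranges without BXD75 were chosen after seeing the data.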

Additional observations from a re-analysis of the deposited data

How the results depend on the processing

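Over 17 alternatives the diet difference was above 0 in all 102 combinations of a member with an alternative and was called in 97. The 5 exceptions were Cpt1a in each batch alone and with the adipocyte or the macrophage covariate, and Crat in batch 1 alone, with the values given above. The median difference of the members lay between 0.16 and 0.21 units. Strain as a replicate block gave a paired median of 0.17 with 6 members called, and as a random replicate block 0.18 with 6 called, so the block changed no diet call of a member. Among the other lists it also called Slc22a4, Aldh9a1, Acsl4, Rxrg and Lyz2 higher and Fgb lower, and lost 0 calls. Centring each array on its median split all calls into 8199 higher and 5758 lower, against 6703 and 6848, and moved the median of all probesets to 0.02. Fewer of all probesets were called in batch 1 alone (4491), in batch 2 alone (8691) and without dim probesets (5292 of 17778) than the 13551 over all arrays. Without dim probesets the strain F test called 5 members and 30.4% of the probesets tested. The number of members past the threshold for r between diets was 3 over all strains, 0 within batch 1 (1 at an unadjusted p below 0.05), 1 within batch 2 and 0 across batches (0 at an unadjusted p below 0.05, exact permutation over 8 strains). With the slow fibre covariate 1 pair was called on HFD, with slopes close to those without it. Between the 10th and 90th percentile of strains the median nominal range was 1.37-fold on CD and 1.31-fold on HFD, which is narrower than a full range by construction. The 4 parental arrays alone gave 0 called members, but that fit called 4 of 35556 probesets and says nothing of stability. Averaging all probesets of a gene could not differ, since each member has 1. The cause of these shifts was not tested.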

Other observations

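The remaining marker lists were read in the diet fit, in which 18.9% of all probesets were called higher and 38.1% in either direction. Of 10 slow fibre markers, 2 were called higher on HFD and 0 lower, with a median difference of -0.12 units, and of 10 fast fibre markers 0 were called higher and 1 lower. Of 8 skeletal muscle markers 1 was called higher, of 5 red blood cell markers 1, and of 4 liver markers 0 (limma, 1 at an unadjusted p below 0.05), with 0 called lower in these 3 lists. The liver marker mean reached 9.38 on the highest CD array and 9.36 on the highest HFD array, beside medians of 7.42 and 7.35. For the members, 13 of 37 HFD arrays lay above the highest CD array in Crat, 5 in Cpt1a, 5 in Slc25a20, 3 in Cpt1b, 2 in Cpt2 and 1 in Slc22a5.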
